A study of Mus musculus with 32 samples.

Results

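The genes followed here, grouped as signals of the cortical hem, were 10: the R-spondins Rspo1, Rspo2 and Rspo3, the WNT carrier Wls, the ligands Wnt8b, Wnt5a and Bmp7, the secreted protein Dkk3 and the transcription factors Lmx1a and Msx1. They were taken by symbol and are 10 of the 32285 genes counted, each present as 1 gene. They were chosen with their levels in these same libraries in view, in particular the comparison of genotypes at E12.5, so that comparison is given below as a description and without a test. Single cells were sequenced from the dorsal telencephalon of C57BL/6J mouse embryos that were either WT or Chd8+/- (called het here), Chd8 being a chromatin remodeller of the CHD family. The 4 stages were E12.5, then E14.5, later E16.0 and finally E17.5, and each of the 8 groups held 4 libraries, from 2 male (M1 and M2) and 2 female (F1 and F2) embryos that were individually processed. WT and het embryos formed litter- and sex-matched pairs, and how the Chd8 allele was made is not given in the labels. The medial wall of the dorsal telencephalon had been cut away so as not to sample the hippocampal primordium, and the hem lies at the edge of that region. The values therefore describe what remained in the dissected tissue and not the hem as a whole.

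The cortical hem is a signalling centre at the dorsomedial edge of the cerebral cortex, between the hippocampal primordium and the choroid plexus. It releases WNT and BMP proteins that pattern the medial cortex, and it is also one of the sources of Cajal-Retzius cells. R-spondins bind Lgr receptors and keep WNT receptors at the cell surface, Wls carries WNT proteins to the membrane for secretion, and Lmx1a and Msx1 are homeodomain transcription factors of the dorsal midline.

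The label was checked against Wnt3a and Gdf7 in the E12.5 libraries, and the other listed hem genes are given further below. Wnt3a, the WNT gene most used to mark the hem, reached 2.16 CPM (the gene's UMIs as a fraction of all UMIs of the library, scaled to a common library total) in WT F2. It was 0.251 CPM in WT M1, 0.158 CPM in WT F1, and 0 in WT M2, where 3 UMIs, the limit that a count of 0 allows, would be 0.0649 CPM. In het it was 1 UMI in M2 and 0 in M1, F1 and F2, which allows up to 0.109, 0.160 and 0.0801 CPM. Gdf7, a BMP-family gene of the roof plate, gave 1 UMI over all 8 libraries. The cells called here by the 10 genes are therefore described by the rule that selected them, as Sox2-detected cells (cells with at least 1 UMI of Sox2, a gene of neural progenitors) with 2 or more of the 10 genes detected, and are not named hem cells.

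After filters and doublet removal the 32 libraries held 138226 cells, with 13706990 to 60523608 UMIs in the kept cells of each. The library with the most UMIs was WT F2 at E12.5. Chd8 itself, the check of the labels, was measured at 40.4 ± 1.98 CPM in the E12.5 WT libraries against 29.6 ± 6.80 CPM in their het partners (SD, n = 4 each), with no overlap, and its het to WT ratio at the later stages ran from 0.802 to 0.906. Which part of Chd8 the allele removes is not given in the labels, so reads from the 3′ end may lie outside it. Depth per cell differed between genotypes at E12.5. The median UMIs of a Sox2-detected cell ran from 9290 to 11212.5 in WT, against 6844.5, 11420.5, 4781 and 6601 in het M1, M2, F1 and F2, so that the M2 pair alone had like depth in both genotypes. Each pair of libraries shared 7 to 66 cell barcodes, at most 1.30% of the smaller library. Of the E12.5 libraries, WT F2 stood apart for these genes, and the ratios of each gene's group means at E12.5 over all cells are given with and without it.

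To show sequence upstream of the members, the 250 bases before each gene's RefSeq start were looked up in the RefSeq promoter table for GRCm38.p6, which held 5 of the 10 genes: Rspo1, Wls, Wnt8b, Lmx1a and Msx1. Rspo2, Rspo3, Wnt5a, Bmp7 and Dkk3 were not matched. RefSeq starts can differ from the GENCODE gene starts given below, and the Lmx1a window (chr1:167689308-167689557) lies inside the gene as GENCODE places it. On both strands 3 motifs were searched: CTTTGA and CTTTGT, the ends of TCF/LEF-type sites through which WNT signalling acts, and TAATTA, a homeodomain core that reads the same on both strands. Across the 32851 promoters of the table, 13.8% held CTTTGA, 16.5% held CTTTGT and 4.84% held TAATTA in a window of this length. Wnt8b held a CTTTGT 168 bases and a TAATTA 36 bases before its start, and the windows of Rspo1, Wls, Lmx1a and Msx1 held none of the 3 motifs. The sequences of Wnt8b, Rspo1 and Wls are shown, 5′ to 3′ along the gene's strand and with motifs in capitals, because these are the genes with the most UMIs in Sox2-detected cells for which a window was found. The windows are chr19:44493222-44493471, chr4:124986180-124986429 and chr3:159839400-159839649, all on the plus strand. A motif match is a description of letters and not of a bound site.
Wnt8b: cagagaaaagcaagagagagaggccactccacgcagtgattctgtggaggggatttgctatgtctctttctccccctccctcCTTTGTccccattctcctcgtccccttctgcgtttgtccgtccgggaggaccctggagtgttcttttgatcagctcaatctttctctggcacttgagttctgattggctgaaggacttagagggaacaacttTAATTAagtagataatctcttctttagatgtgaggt
Rspo1: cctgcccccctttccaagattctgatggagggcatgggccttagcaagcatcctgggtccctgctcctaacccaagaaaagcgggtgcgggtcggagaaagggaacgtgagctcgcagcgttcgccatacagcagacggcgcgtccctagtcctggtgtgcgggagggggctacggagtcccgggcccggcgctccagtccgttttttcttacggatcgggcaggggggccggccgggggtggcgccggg
Wls: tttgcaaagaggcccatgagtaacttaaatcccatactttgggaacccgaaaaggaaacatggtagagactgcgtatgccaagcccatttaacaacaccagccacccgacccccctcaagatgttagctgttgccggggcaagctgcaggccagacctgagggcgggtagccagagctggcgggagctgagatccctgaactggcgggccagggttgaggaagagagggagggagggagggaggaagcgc

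Among the R-spondins at E12.5, Rspo3 (chr10:29452416-29535867, minus strand) was lower in every het library than in every WT library. It stood at 20.2, 10.2, 17.7 and 46.1 CPM in WT M1, M2, F1 and F2 and at 6.13, 8.13, 7.89 and 6.89 CPM in het M1, M2, F1 and F2. The lowest WT library, M2, was close to its het partner, and the het libraries were close to one another. The het mean of 7.26 ± 0.926 was 0.309 of the WT mean of 23.5 ± 15.6, and 0.453 of it without WT F2. In such sums over all cells, fewer cells with the gene and less RNA of it per cell cannot be told apart. Rspo1 (chr4:124986430-125009099, plus strand) stood at 4.04, 2.55, 3.95 and 24 CPM in WT and at 1.23, 2.41, 3.57 and 1.07 CPM in het, in the same order of libraries. Only M1 and F2 were far apart within their pairs, with het to WT ratios of 0.305 and 0.0445 against 0.943 in M2 and 0.905 in F1. The ratio of the group means was 0.240, and 0.589 without WT F2, in which Rspo1 was 6.83 times the mean of the other 3 WT libraries. Rspo2 (chr15:43020794-43170826, minus strand) was the rarest of the 3, with 444 UMIs in WT and 19 in het. Its level was 0.986, 0.130, 0.632 and 5.80 CPM in WT and 0, 0.186, 0.107 and 0.160 CPM in het, where 0 in het M1 allows up to 0.109 CPM (3 UMIs). Rspo2 was lower in het in 3 of 4 pairs, the M2 pair being the exception, and WT F2 was 9.96 times the mean of the other WT libraries. The Rspo2 ratio was 0.0601, and 0.195 without WT F2. Of the 10 genes, 4 overlap other annotated genes: Rspo1 has Gm12930 and Wnt5a has Gm2670 on the opposite strand, Rspo3 has Gm48159 on the opposite and Gm20276 on the same strand, and Wls has Gm23941 on the opposite and Gm43307 on the same strand. Whether counting used the strand is not given in the sources used here.

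Wls (chr3:159839672-159938664, plus strand) was lower in het in all 4 pairs, without overlap of the groups. It stood at 18.6, 20.6, 20.8 and 33.4 CPM in WT and at 12.2, 14.4, 12.4 and 13.6 CPM in het. The 3 WT libraries other than F2 were close to one another, and the het to WT ratio of 0.563 became 0.658 without WT F2. Wnt8b (chr19:44493472-44514273, plus strand), a canonical WNT ligand of the medial cortex, stood at 13.0, 13.5, 17.4 and 46.4 CPM in WT and at 10.3, 8.98, 10.2 and 7.05 CPM in het. Every het library was below every WT library, and the ratio moved from 0.405 to 0.626 without WT F2. Wnt5a (chr14:28504750-28527448, plus strand), a ligand known mainly for non-canonical WNT signalling, stood at 4.21, 1.64, 2.7 and 4.92 CPM in WT and at 1.31, 1.41, 1.33 and 1.34 CPM in het. The het libraries were nearly equal, and the more widely spread WT libraries did not overlap them, with ratios of 0.399 and, without WT F2, 0.471. Bmp7 (chr2:172868012-172940321, minus strand), a BMP ligand, stood at 6.46, 9.0, 7.74 and 9.58 CPM in WT and at 4.57, 6.73, 3.41 and 4.54 CPM in het. It was lower in het in all 4 pairs, but het M2 lay above WT M1, so the groups overlapped. Of the 10 genes Bmp7 depended least on WT F2, with ratios of 0.587 with it and 0.622 without it.

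Dkk3 (chr7:112116017-112159057, minus strand), a secreted protein of the Dickkopf family, stood at 3.81, 2.10, 3.72 and 6.71 CPM in WT and at 1.60, 2.30, 2.03 and 1.82 CPM in het. The M2 pair went the other way, with het M2 above WT M2. Lmx1a (chr1:167689237-167848741, plus strand), which marks the hem and roof plate, stood at 1.62, 1.12, 1.35 and 2.13 CPM in WT and at 0.109, 1.71, 0.586 and 0.508 CPM in het. Again only het M2 overlapped the WT libraries. Msx1 (chr5:37820485-37824583, minus strand), a target of BMP signalling, stood at 6.21, 8.24, 5.40 and 12.2 CPM in WT and at 4.42, 3.96, 3.52 and 5.18 CPM in het. The Msx1 groups did not overlap, and most of its UMIs lay in cells with meningeal markers, as described below. The ratios of the means were 0.474 for Dkk3, 0.468 for Lmx1a and 0.533 for Msx1, and 0.603, 0.533 and 0.646 without WT F2.

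**Figure D1:**
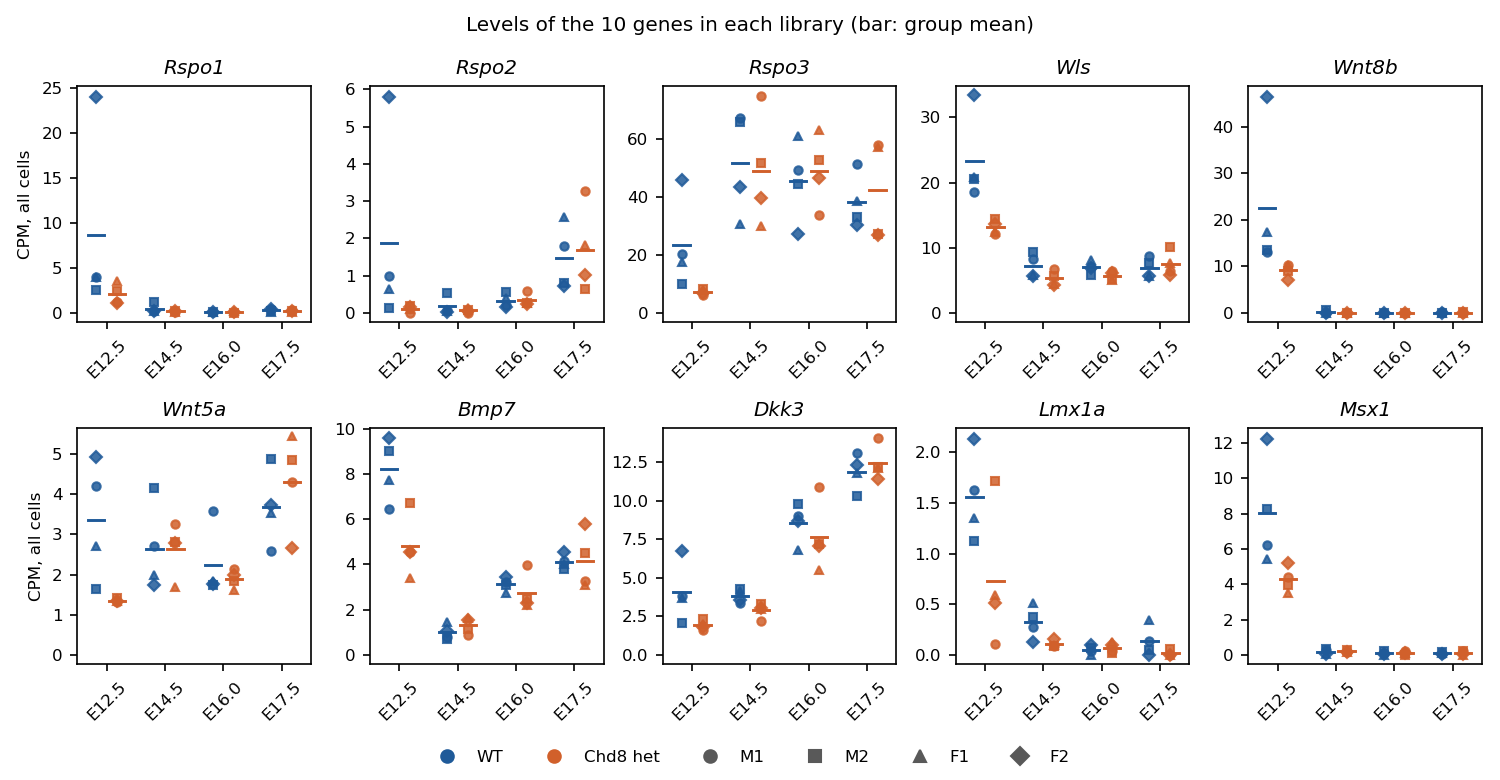
Level in CPM over all cells (linear axes, a scale for each gene) of the 10 genes in each of the 32 libraries, by stage on the x axis; blue is WT, orange is Chd8 het, the marker is the embryo (M1, M2, F1 or F2) and the bar is the mean of 4 libraries. At E12.5 the blue diamond, WT F2, is the highest WT library for every gene, and by E14.5 Wnt8b is at most 0.726 CPM in any library.

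In all cells at E12.5, 5 of the 10 genes had every het library below every WT library: Rspo3, Wls, Wnt8b, Wnt5a and Msx1. Of the 15875 genes tested, 6.99% had this pattern, and without WT F2 it held for the same 5 genes, against 8.39% of genes. Of the 10 genes, 7 were lower in het in all 4 pairs, against 17.3% of genes; Rspo2, Dkk3 and Lmx1a were lower in 3. These counts describe the libraries that chose the members, and nothing is read from them. The median fitted log2 fold change of the 10 genes was -1.11, against -0.03 over all genes tested. Over all 15875 genes tested, members included, the edgeR quasi-likelihood test with Benjamini-Hochberg adjustment called 0.328% in either direction and 0.0819% lower in het.

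Restricted to the Sox2-detected cells of E12.5, 14313 from WT and 11590 from het libraries, the same genes were lower with a somewhat different set separating the groups. Rspo3, Wls, Wnt8b and Wnt5a had every het library below every WT library there, against 6.40% of 13790 genes tested. Rspo2, which was not among the genes tested, had the same pattern. For Wnt5a the level was 2.90, 0.865, 1.34 and 4.05 CPM in WT M1, M2, F1 and F2 and 0.685, 0.619, 0.314 and 0.433 CPM in het. For Rspo2 the Sox2-detected cells gave 387 UMIs in WT and 2 UMIs in het. Msx1 overlapped in Sox2-detected cells because het M2, at 2.36 CPM, lay above WT M1 and WT M2. Cells with meningeal markers were included there. Over all cells without them, het M2 had 30 UMIs of Msx1 (0.513 CPM), and the groups did not overlap. Rspo2 and Lmx1a had too few UMIs in Sox2-detected cells to pass the filter on low counts, so 8 of the 10 genes were tested there.

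The share of Sox2-detected cells with 2 or more of the 10 genes was lower in het in all 4 pairs at E12.5, but the groups overlapped. WT M1 had 7.44% (271 of 3641 cells, exact 95% binomial interval 6.61 to 8.34), WT M2 10.7% (325 of 3035, 9.63 to 11.9), WT F1 13.2% (463 of 3506, 12.1 to 14.4) and WT F2 19.1% (787 of 4131, 17.9 to 20.3). Het M1 had 3.84% (99 of 2576, 3.13 to 4.66), het M2 8.39% (297 of 3540, 7.5 to 9.35), het F1 3.32% (63 of 1900, 2.56 to 4.22) and het F2 2.74% (98 of 3574, 2.23 to 3.33). Het M2, the het library with the depth of its partner, was the highest het library and the only one above a WT library. The means were 12.6 ± 4.90% in WT and 4.57 ± 2.58% in het, a ratio of 0.363, and 0.437 without WT F2. The intervals cover counting error only. By pair the ratio was 0.516 for M1, 0.783 for M2, 0.251 for F1 and 0.144 for F2.

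Cells with more UMIs show more genes, so the same share was read again after each cell was thinned to 3000 UMIs. Sox2 had to be detected in the thinned cell too, which left 1790 to 2577 cells in a WT library and 1091 to 2285 in a het library. The thinned share was 1.51, 0.95, 1.49 and 4.50% in WT M1, M2, F1 and F2 (34, 17, 31 and 116 cells) and 0.738, 0.917, 1.47 and 0.35% in het (12, 19, 16 and 8 cells). In the M2 and F1 pairs the genotypes were then nearly equal, with ratios of 0.965 and 0.985, and the F2 pair was the farthest apart, with a ratio of 0.0778. The means were 2.11 ± 1.61% and 0.868 ± 0.464%, a ratio of 0.411, and 0.659 without WT F2. Cells too shallow to be thinned were left out, and made up 12.7% of all cells of het M1, 0% of het M2, 29.95% of het F1 and 9.18% of het F2, with 0% in each WT library. Cells with Neurod6 and without Sox2 detected, which are excitatory neurons by that marker, served as a class that should lack most of the set, although 8.58% of these WT cells had Rspo3. In them 4.11 to 6.15% of cells in WT and 1.03 to 4.13% in het had 2 or more of the genes at E12.5, at median depths of 7607.5 to 8734 and 3661 to 8813 UMIs. The share in Sox2-detected cells was above that of this class in each of the 8 libraries, and the depth of the class differed between genotypes in the same direction.

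**Figure D2:**
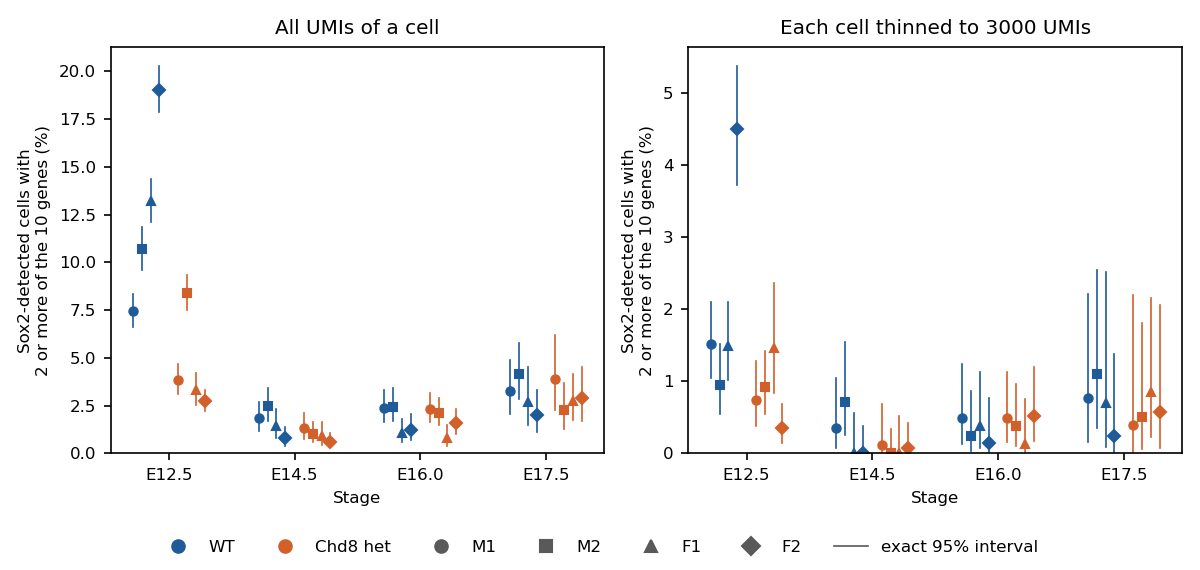
Share in percent of Sox2-detected cells with 2 or more of the 10 genes, by stage, in each library (blue WT, orange Chd8 het, marker for the embryo, vertical line the exact 95% binomial interval); the left panel uses all UMIs of a cell and the right panel each cell thinned to 3000 UMIs. WT F2 at E12.5 is highest in both panels, at 19.1% and 4.50%, and after thinning the M2 and F1 pairs at E12.5 lie close together.

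The number of genes per cell gives the values on both sides of the rule's threshold. Among WT Sox2-detected cells at E12.5, 2960 (20.7%) had exactly 1 of the 10 genes and 1073 (7.5%) exactly 2, at median depths of 11998 and 13881 UMIs, while the 9507 cells with none had a median of 9399. Among het cells, 1680 (14.495%) had exactly 1 and 381 (3.29%) exactly 2, at 10035 and 12383 UMIs, and 9353 had none, at 6826. With 3 or more genes as the rule the shares were 5.19% in WT and 1.4% in het, a ratio of 0.270, and 0.367 without WT F2.

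To set the share of cells beside the level per cell, each gene was left out in turn and cells were chosen by the other 9, so that a gene's level was read in cells it had not helped to choose. The share of Sox2-detected cells with 2 or more of the other 9 had het to WT ratios of 0.339 to 0.364, whichever gene was left out, and of 0.408 to 0.442 without WT F2. Within the cells so chosen, Bmp7 had like levels in both genotypes, 19.0 ± 3.96 CPM in WT and 18.8 ± 5.50 CPM in het, a ratio of 0.992 (1.08 without WT F2). Wls was 64.5 ± 25.2 and 38.9 ± 13.7 CPM, a ratio of 0.602 (0.715 without WT F2), and lower in het in all 4 pairs. Wnt8b was 101 ± 60.6 and 60.5 ± 12.2 CPM, a ratio of 0.597 (0.838 without WT F2), also in all 4 pairs. For Wls, Wnt8b and Bmp7 the groups overlapped in these cells. Msx1 had a ratio of 0.738 (0.835 without WT F2) and was lower in het in 2 of 4 pairs, on 393 UMIs in WT and 104 in het. Cells with meningeal markers, which hold most of its UMIs, were included here. Over all cells without them its ratio was 0.400. Rspo1 had a ratio of 0.363 that rested on WT F2, being 0.682 without it, and was lower in het in 2 of 4 pairs. Rspo3 had a ratio of 0.378, and 0.563 without WT F2, and was lower in 3 of 4 pairs; the groups of both R-spondins overlapped. Dkk3 (0.288, and 0.381 without WT F2) and Wnt5a (0.149, and 0.179 without it) were lower in all 4 pairs with overlapping groups, Wnt5a on 273 UMIs in WT and 9 in het. Rspo2 (369 UMIs in WT, 1 in het) and Lmx1a (120 in WT, 3 in het) had too few UMIs in het for a ratio.

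The levels of most members were also lower in het in the Sox2-detected cells outside the chosen ones. There Rspo3 was 6.28 ± 2.11 CPM in WT and 3.89 ± 0.699 CPM in het, Wls 17.8 ± 2.02 and 12.2 ± 1.09 CPM, and Wnt5a 0.892 ± 0.267 and 0.472 ± 0.166 CPM. In none of these did the genotypes overlap. For Rspo1, Rspo2, Wnt8b, Bmp7, Dkk3, Lmx1a and Msx1 they did, and the share of all genes without overlap in these cells is not given. Rspo1 was the exception among the 10, at 1.61 ± 0.796 CPM in WT and 1.77 ± 1.58 CPM in het. Both the share of cells with several of the genes and the level outside those cells were thus lower in het for Rspo3, Wls and Wnt5a, and the part of depth per cell in the share was not tested beyond the thinned values above.

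**Figure D3:**
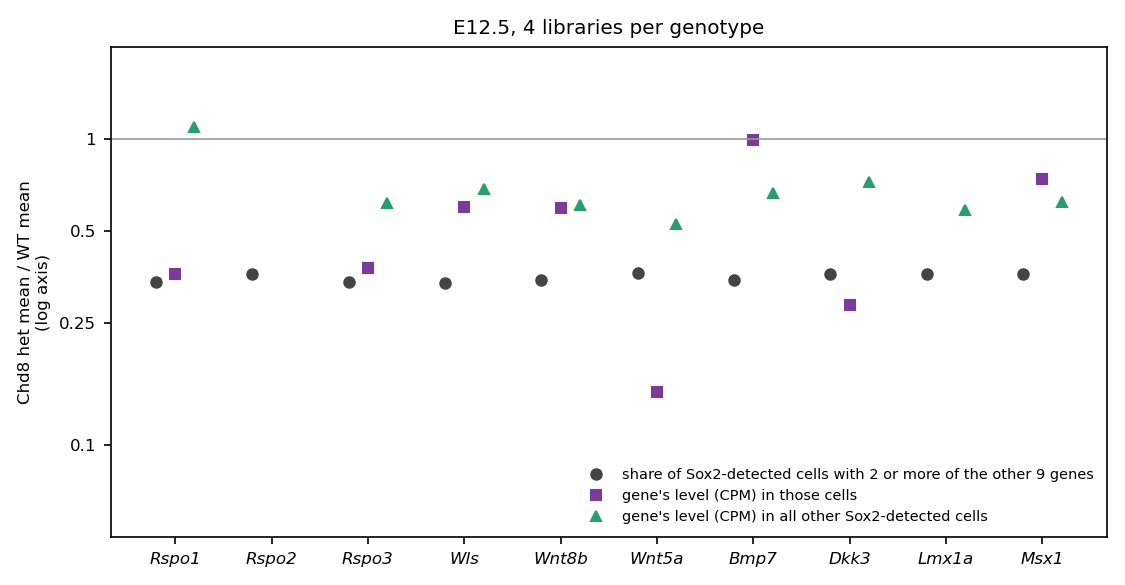
Het mean divided by WT mean at E12.5 (log axis, n = 4 libraries each) for the share of Sox2-detected cells with 2 or more of the other 9 genes (circles), the gene's CPM in those cells (squares) and its CPM in the other Sox2-detected cells (triangles); ratios with 3 or fewer UMIs in a genotype are not drawn. The circles lie between 0.339 and 0.364, while the squares run from 0.149 for Wnt5a to 0.992 for Bmp7.

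Each of the 10 genes was commoner in cells with another of them than in cells without it. For each of the 90 ordered pairs in WT Sox2-detected cells at E12.5, the share of cells with the second gene was higher in cells with the first than in cells without it, by 1.67 to 241 times with a median of 5.83. This is a description: deeper cells detect more of every gene, and one library holds many of the cells. Rspo2 and Lmx1a were the closest pair, with Lmx1a in 51.6% of the 62 cells with Rspo2. Wnt8b was found in 64.8% of the 389 cells with Rspo1 and in 54.8% of the 1165 cells with Rspo3. Dkk3 and Wls were the least close, with Dkk3 in 4.93% of the 2556 cells with Wls against 2.59% of the others. In het the closest pair could not be compared, because Rspo2 was detected in 2 Sox2-detected cells and Lmx1a in 17.

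**Figure D4:**
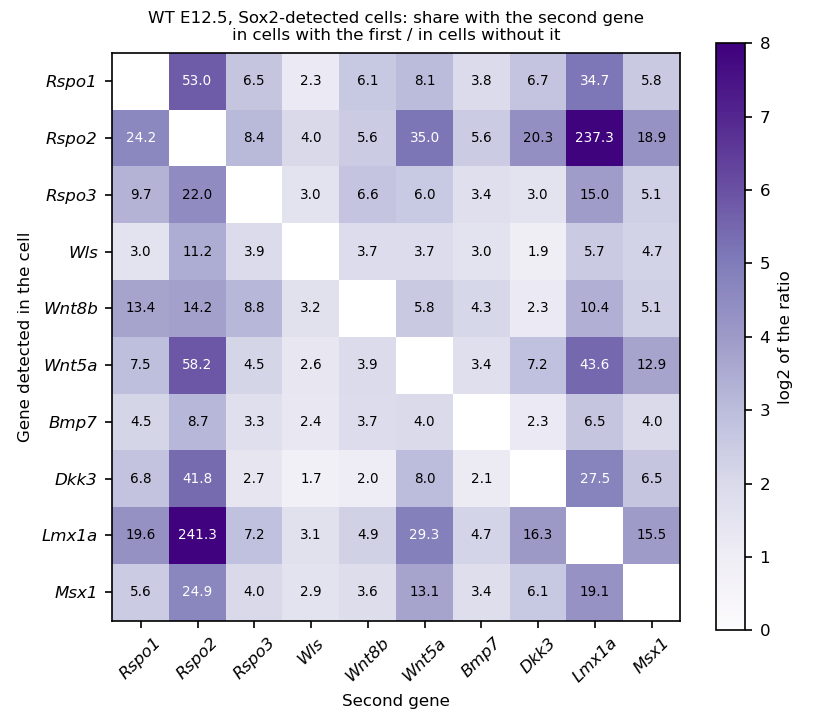
Heat map of WT Sox2-detected cells at E12.5, showing for each gene detected in a cell (rows) and second gene (columns) the share of cells with the second gene divided by that in cells without the first; the number is the ratio and the shade its log2. The ratios run from 1.67 for Wls in cells with Dkk3 to 241 for Rspo2 in cells with Lmx1a.

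The members differed in the cells that held their UMIs. In WT at E12.5, Sox2-detected cells were 71.8% of cells and held 95.9% of the UMIs of Rspo1, 90.8% of Wnt8b, 87.2% of Rspo2, 84.4% of Dkk3, 80.4% of Wls and 74.6% of Bmp7. Their median UMIs were above those of all cells in each WT library, so a share of cells understates their share of UMIs. As mean CPM, Wls stood at 24.2 in Sox2-detected cells against 23.3 in all WT cells, and Bmp7 at 7.87 against 8.19. Neither was therefore clearly raised there. The Sox2-detected cells with 2 or more members, 9.26% of cells, held 90.6% of Rspo1 and 75.6% of Wnt8b, the rule having used both. Cells with 3 or more of 7 Cajal-Retzius markers (Reln, Trp73 and others), 360 cells or 1.81%, held 39.4% of Rspo2, 36.9% of Rspo3, 29.8% of Lmx1a and 25.7% of Rspo1. Without WT F2, which held 351 of the 444 UMIs of Rspo2 and 1453 of the 2005 of Rspo1, these shares were 62.4, 45.4, 29.1 and 32.4%. Rspo1 was detected in 3.06% of those 360 cells and Rspo3 in 60.6%, and in the 3 WT libraries other than F2 the Rspo1 share rested on 4 cells with 179 UMIs. Cells with 3 or more of 6 meningeal markers (Col1a1, Lum and others), 236 cells or 1.18%, held 81.1% of Msx1, 15.9% of Bmp7 and 12.4% of Wls. The 3 cells with 3 or more choroid plexus markers, all in WT F2 and with a median of 44505 UMIs, held 15.5% of all WT Rspo2 and 9.78% of Rspo1.

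Leaving out the cells with meningeal markers lowered Msx1 in both genotypes. Msx1 was then 1.51 ± 0.630 CPM in WT and 0.604 ± 0.0770 CPM in het, a ratio of 0.400 without overlap. For the other 9 genes the ratio without these cells was 0.0597 to 0.622, and Rspo3, Wls, Wnt8b and Wnt5a still did not overlap. The share of all genes without overlap in this setting is not given. The lowest ratio was that of Rspo2, for which WT F2 had 5.89 CPM against 0.132 to 1.00 in the other WT libraries. The share of Sox2-detected cells with 2 or more members without them had a ratio of 0.359.

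**Figure D5:**
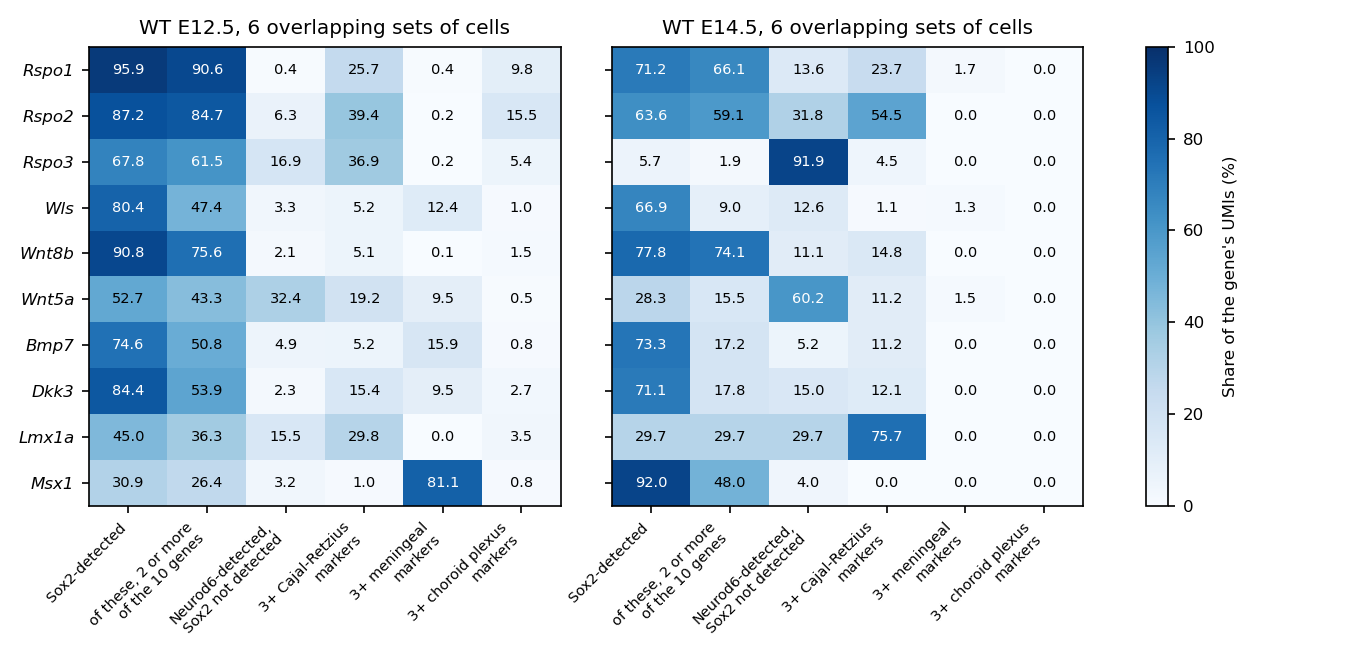
Share in percent of each gene's UMIs held by 6 overlapping sets of WT cells at E12.5 (left) and E14.5 (right); the shade and the number both give the share. Msx1 at E12.5 lies mainly in cells with meningeal markers (81.1%), and Rspo3 lies mainly in Sox2-detected cells at E12.5 (67.8%) and in Neurod6-detected cells at E14.5 (91.9%).

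Markers of other cell types also differed between the genotypes at E12.5, and their part in the levels of the 10 genes was not tested beyond the values without meningeal cells. The summed level of 6 meningeal genes ran from 90.7 to 160 CPM in WT and from 63.1 to 97.0 CPM in het, with none of the 6 at 0. The 6 choroid plexus genes summed to 1.62 to 4.66 CPM in WT and 0.435 to 2.88 CPM in het, with at most 1 gene at 0 in a WT library and 3 in a het library. The 7 Cajal-Retzius genes summed to 70.4 to 78.4 CPM in WT and 60.01 to 77.7 CPM in het, and cells with 3 or more of them numbered 86, 70, 99 and 105 in WT and 32, 83, 31 and 53 in het. The 6 listed genes of the medial pallium and hippocampal primordium summed to 611 to 730 CPM in WT and 497 to 619 CPM in het. The dissection was to leave these regions out, but the sum does not measure them. Emx2 and Nr2f1, both in the list, stood at 267 and 298 CPM in Sox2-detected cells with fewer than 2 members. Globin genes of red blood cells ran from 4756 to 13977 CPM in WT and from 1306 to 14473 CPM in het. Cells with 3 or more of them were 35.8, 62.3, 29.4 and 12.9% of cells in WT M1, M2, F1 and F2. In het they were 0.166, 79.8, 1.81 and 2.89%, in the same order of libraries. Het M1, F1 and F2 were also the het libraries of low depth per cell, and the part of this difference in the levels and shares was not tested. By edgeR and by DESeq2, 0 genes of the meningeal (6 tested), choroid plexus (1 tested), Cajal-Retzius (7), medial pallium (6) and blood (6) lists were called. With edgeR 3 meningeal genes and 1 medial pallium gene had an unadjusted p under 0.05. The share of all genes under that limit is not given, so these counts are not read further. With the litter- and sex-matched pair as a block, which called 6.55% of all genes lower, 5 of the 6 meningeal genes were called lower.

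After E12.5 the genotypes were tested over all cells for the members that passed the filter on low counts without the E12.5 libraries. None was called by edgeR at any stage, the lowest adjusted p being 0.933, which does not show that the levels were alike. Wnt8b, Msx1, Rspo1 and Lmx1a, which passed only through E12.5, are given as a description. Of the members tested, only Wls at E14.5 had an unadjusted p under 0.05 by edgeR (0.0248). Of all 15875 genes edgeR called 0%, 0.0063% and 0% in stage order. DESeq2 called 1 gene at E14.5 and 1 at E17.5, where 272 and 696 genes had an unadjusted p under 0.05 by edgeR. Dkk3 at E14.5 was the one member with separate groups, at 3.83 ± 0.442 CPM in WT and 2.89 ± 0.468 CPM in het, a pattern seen in 0.391% of genes. In Sox2-detected cells at E14.5, which are part of the same cells, it was 6.99 ± 0.563 and 4.66 ± 0.422 CPM without overlap, and was not called. The share of all genes without overlap there is not given, so the separation is not read as a second result. Wls was lower in het in all 4 pairs at E14.5, at 7.28 ± 1.84 and 5.31 ± 1.14 CPM, and at E16.0, at 6.99 ± 0.951 and 5.71 ± 0.733 CPM, but not at E17.5, where it was lower in 1 pair. Being lower in all 4 pairs was seen for 7.39% of genes at E14.5 and 6.41% at E16.0. These Wls values are over all cells. In Sox2-detected cells its fitted log2 fold change at E17.5 was still negative, at -0.44 (SE 0.28), and was not called. Fitted differences at E14.5 were large for members with few UMIs. Wnt8b differed by -2.32 on the log2 scale (SE 1.01), on 27 UMIs in WT, 23 of them in M2, and 5 in het, and by -0.11 without WT M2. Lmx1a differed by -1.52 (SE 0.69), at 0.322 ± 0.164 CPM in WT and 0.106 ± 0.0325 CPM in het, and Rspo2 by -1.38 (SE 1.26) on 22 UMIs in WT, 17 of them in M2, and 8 in het, with the opposite sign (0.24) without WT M2. Rspo1 at E14.5, which differed by -1.53 (SE 0.81), and by -0.37 without WT M2, was lower in all 4 pairs, on 59 UMIs in WT, 40 of them in M2, and 20 in het. Bmp7 at E14.5 went the other way and was higher in het in all 4 pairs, at 0.996 ± 0.332 CPM in WT and 1.31 ± 0.344 CPM in het. Rspo3 had a WT mean of 51.9 ± 17.9 CPM at E14.5 against 49.1 ± 19.4 in het. For E16.0 its WT and het means were 45.6 ± 14.1 and 49.1 ± 12.2 CPM, and for E17.5 they were 38.4 ± 9.28 and 42.4 ± 17.8 CPM, each pair of means within 1 SD.

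The share of Sox2-detected cells with 2 or more members had fallen by E14.5 to a WT mean of 1.64 ± 0.701% and a het mean of 0.962 ± 0.292%, lower in het in all 4 pairs with overlapping groups. The E16.0 means were 1.79 ± 0.730% (WT) and 1.72 ± 0.673% (het), and the E17.5 means 3.03 ± 0.901% (WT) and 2.96 ± 0.686% (het). In Neurod6-detected cells without Sox2, WT shares for the 3 stages were 1.35, 1.397 and 1.32%, and het shares 1.45, 1.20 and 1.68%. At E14.5 and E16.0 the Sox2-detected share was near the level of that class in both genotypes. Most WT UMIs of Rspo3 at E14.5 lay in that class, as given below, so the class did not lack the set. Nearness to it cannot decide what the cells are, and the share is not read there as a count of a separate kind of cell. Without Dkk3, Wnt5a and Bmp7 in the rule, 4 of 5233 WT and 7 of 6200 het cells passed at E16.0. At E17.5, 0 of 2688 WT and 0 of 2557 het cells did. Every cell counted at E17.5 thus had at least 1 of those 3 genes.

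The WT E12.5 libraries were part of the values that chose the members, so the step from E12.5 to E14.5 within WT is given for them as a description, with fitted log2 fold changes and no test. Wnt8b, Msx1, Rspo1 and Lmx1a passed the filter on low counts only through the E12.5 libraries. Wnt8b went from 22.6 ± 16.01 to 0.211 ± 0.345 CPM, a fitted log2 fold change of -6.77 (SE 0.55). Het libraries showed the same course, from 9.15 ± 1.53 to 0.0416 ± 0.0140 CPM. The fitted log2 fold changes of Msx1, Rspo1 and Lmx1a were -5.41 (SE 0.45), -4.28 (SE 0.62) and -2.42 (SE 0.52). That of Rspo1 was -2.97 without WT F2 at E12.5 and -5.44 without WT M2 at E14.5. For Bmp7 and Wls they were -3.17 (SE 0.25) and -1.79 (SE 0.19). For Rspo2 the value was -3.50 (SE 0.84), and -1.79 without WT F2 at E12.5 and -5.12 without WT M2 at E14.5. Dkk3 and Wnt5a differed by -0.21 (SE 0.22) and -0.46 (SE 0.29).

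Rspo3 was the one member with a higher level at E14.5 over all cells, at 51.9 ± 17.9 against 23.5 ± 15.6 CPM, a log2 fold change of 1.02 (SE 0.35), and 1.59 without WT F2. In Sox2-detected cells its log2 fold change was instead -1.54 (SE 0.36), and -0.73 without WT F2 at E12.5 and -2.71 in cells with at least 2 Sox2 UMIs. Its UMIs lay in Neurod6-detected cells without Sox2 for 16.9% in the E12.5 libraries (28.5% without F2) and for 91.9% in those of E14.5, and these cells grew from 15.9% to 58.7% of cells. At E17.5 Rspo2 stood at 1.48 ± 0.880 CPM in WT, and those cells held 93.2% of its 118 UMIs; its difference from E16.0 was not called (adjusted p = 0.0563). In Sox2-detected cells the log2 fold changes of Bmp7 and Wls from E12.5 to E14.5 were -2.20 and -1.08. For Wnt8b, Rspo1 and Msx1, which passed the filter there through the E12.5 libraries alone, they were -6.01, -3.74 and -2.82; without WT M2 at E14.5 those of Wnt8b and Rspo1 were -11.73 and -5.96, and without WT F2 at E12.5 that of Rspo1 was -2.44.

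The later steps used no E12.5 library in the comparison. Between E14.5 and E16.0, 6.56% of genes rose and 7.01% fell, and of the 6 members that passed the filter without the E12.5 libraries 2 rose and 0 fell. Bmp7 rose by 1.49 (SE 0.25, adjusted p = 0.000376 by edgeR), to 3.12 ± 0.281 CPM, and Dkk3 by 0.98 (SE 0.22, adjusted p = 0.00441), to 8.58 ± 1.26 CPM. Both also rose in Sox2-detected cells, by 1.79 and 0.95, where 5% of genes rose and 4.23% fell; the Dkk3 call there was lost without WT M1 at E14.5. Lmx1a and Wnt8b, again given without a test, had 37 and 27 UMIs at E14.5, 23 of the 27 in WT M2, against 5 and 2 at E16.0. Wls fell in Sox2-detected cells by 0.73 (adjusted p = 0.0457), a call lost in 7 of 12 alternatives. Between E16.0 and E17.5 none of the 6 members was called over all cells, where 17.1% of genes were. Of the 6, 4 had an unadjusted p under 0.05 by edgeR. The share of all genes under that limit in this step is not given, so the count is not read further. In Sox2-detected cells, where 12.3% of genes rose, Wnt5a rose by 2.14 (SE 0.54, adjusted p = 0.00496), to 4.8 ± 1.56 CPM, and Bmp7 by 0.84 (SE 0.25, adjusted p = 0.0159), the latter call lost without WT F1 at E17.5. The ligands Bmp7 and Wnt5a and the secreted Dkk3 were thus present at the end of the series in WT, whereas Wnt8b, Msx1 and Lmx1a had 3, 7 and 11 UMIs there.

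By E17.5 the members that remained lay in different cells. Sox2-detected cells, 18.4% of WT cells, held 71.9% of the UMIs of Bmp7, 39.6% of Dkk3 and 33.7% of Wnt5a. Cells with 3 or more markers of subpallial cells and interneurons (Dlx1, Gad2 and others), 5.70% of cells, held 29.2% of Wls and 27.4% of Wnt5a. Cells with Cajal-Retzius markers, 0.789% of cells, held 9 of the 11 UMIs of Lmx1a and 14 of the 22 of Rspo1.

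Genes of the same pathways were counted from lists, none of them members. Of 12 other hem and dorsal midline genes, 8 were tested in all cells at E12.5. Their median log2 fold change was -0.75 against -0.03 for all genes. Between genotypes 0 of them were called by edgeR or DESeq2, where edgeR called 0.328% of all genes. With the pair as a block 2 were called lower, beside 6.55% of all genes. An unadjusted p under 0.05 by edgeR was seen for 3. The share of all genes under that limit is not given, so this count and those below are not read as enrichment. Of the 14 WNT receptor genes tested (17 listed) and the 14 genes of the BMP pathway, edgeR called 0, with 2 and 3 at an unadjusted p under 0.05, and DESeq2 called 0 and 1. Id3 is counted under that limit in both the hem and the BMP lists. Of 8 tested WNT inhibitors 1 was called, Apcdd1, a membrane inhibitor of WNT signalling. It stood at 8.33, 3.87, 7.49 and 10.5 CPM in WT M1, M2, F1 and F2 and at 2.86, 3.20, 2.99 and 2.83 CPM in het. Apcdd1 fell by 1.26 on the log2 scale (SE 0.24, edgeR adjusted p = 0.018), lower in het in all 4 pairs and without overlap. The lists, too, were chosen with earlier results of these data known, so this call is a description and not a separate support. Whether it held with 1 library left out is not given. Of 7 tested WNT target genes 0 were called by edgeR or DESeq2, 3 had an unadjusted p under 0.05 by edgeR and 3 were called lower with the block. Ccnd1, a cell cycle gene, and Nkd1, a feedback inhibitor, had the highest levels and log2 fold changes of -0.14 and -0.23. Those with an unadjusted p under 0.05 were Sp5 (-0.87), Tcf7 (-0.73) and Axin2 (-0.47).

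The same lists were counted in WT from E12.5 to E14.5, a step in which 28.2% of all genes fell and 25.5% rose. These counts are descriptions, because the lists were chosen with earlier results of these data known. Whether their genes passed the filter on low counts without the E12.5 libraries is not given. Of the 8 other hem genes tested, 6 fell and 2 rose, Bmp4 by -4.09, Msx2 by -3.89 and the receptor Fzd10 by -2.93 on the log2 scale being the largest falls. Of 7 WNT targets 6 fell, among them Sp5 (-5.01), a transcription factor induced by WNT signalling, and Tcf7 (-1.97). Of 14 WNT receptor genes 6 fell, with Ror2, a receptor for Wnt5a, at -2.49 and Lgr4, a receptor for R-spondins, at -1.93. Of 8 inhibitors 5 fell and 1 rose, Wif1 falling by 4.61. Of 14 BMP pathway genes 5 fell and 4 rose, with Id3 at -2.09 and Id2 at +1.66. All 6 meningeal genes fell in the same step, Lum by 7.31, so that Msx1 in all cells moved with them, and their part in its change was not tested.

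The genes most like the 10 in the E12.5 libraries were found from the correlation of log2(CPM + 1) with the mean of the members' standardised levels over the 8 libraries, among 9593 genes with a mean of at least 5 CPM. They were Dach1 (r = 0.964), Ptgr1 (0.958), Nkd1 (0.958), Hspb8 (0.957) and Rxylt1 (0.948). Each was lower in every het than in every WT library, as were 6.99% of all genes tested. A ranking against members chosen with this contrast in view favours that pattern, so nothing is read from it. Dach1, for example, ran from 33.6 to 46.2 CPM in WT and from 28.8 to 32.8 CPM in het. For Nkd1 the lowest WT library, at 18.902 CPM, was barely above the highest het library, at 18.892 CPM. Because the 8 libraries fall into the same 2 genotypes and share their depth, these correlations are descriptions. The genes most raised in Sox2-detected cells with 2 or more members, against other Sox2-detected cells of the same library and as folds of CPM + 1, began with the collagen-matrix genes Lum (median fold 18.9 over 8 libraries), Col3a1 (13.1) and Dcn (7.26). After them came Lmo2 (5.11), Lgals1 (4.46), Wif1 (4.41), Id3 (4.38), Col4a1 (3.82), Sp5 (3.81) and Tmem132c (3.57). The folds of Lum, Col3a1, Dcn and Col4a1 fell below 1 in at least 1 library, whereas those of Lmo2 (4.05 to 10.3), Wif1 (3.23 to 8.46) and Sp5 (2.61 to 5.67) stayed above 1 in all 8. Wnt3a had a median fold of 1 over the 8 libraries and a highest fold of 10.98, with 131 UMIs in WT F2 and at most 13 in any other library. The added 1 CPM holds the fold near 1 where a gene is near 0. Pooled, Wnt3a stood at 3.70 CPM in these cells and 0.00891 CPM in the other Sox2-detected cells. Beside Id3, the other listed hem genes had median folds of 2.18 (Msx2), 2.06 (Bmp4), 1.63 (Wnt7b), 1.55 (Bmp2), 1.54 (Bmp5), 1.25 (Fzd10), 1.01 (Cux2) and 1 (Wnt2b, Bmp6 and Gdf7).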

How the data were processed

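Single-cell RNA was captured from 32 dorsal telencephalon samples (8 groups of 4) with 10x 3′ v2 chemistry, per the labels. The authors deposited raw UMI counts per gene and cell; the submitters' processing notes name STAR 2.7.9a, STARsolo, Cell Ranger and mm10, and the cell filter before deposit is not given in the sources used here. Of 145082 barcodes, 143697 were kept, with 1000 or more UMIs, 500 or more genes and no more than 10% of UMIs from mitochondrial genes. A search with simulated doublets (0.5 per cell, 2000 variable genes, 30 components, 20 neighbours, 0.8% expected per 1000 cells) removed 5471, leaving 138226 cells and 986368139 UMIs.

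Deposited counts were summed per library, over all cells and over Sox2-detected cells, and tested with edgeR 4.0.16 in R 4.3.3. The quasi-likelihood fit used TMM scaling, a filter on low counts by group and all 32 libraries with 8 group means, and p-values were Benjamini-Hochberg adjusted over all genes tested; an adjusted p under 0.05 was called. The fit was also run on simulated counts with known changes, and the outcome is not given here. DESeq2 1.42.0, no filter on low counts, doublets kept, a pair block, at least 2 Sox2 UMIs and single libraries left out were the alternatives. CPM and shares were computed per library; het to WT values are ratios of group means, with SD over libraries, and thinning drew 3000 or 2000 UMIs per cell. Gene positions are from GENCODE M21 on GRCm38, and promoters from RefSeq.

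WT and het samples of the same sex and number were taken as pairs, because the series describes litter- and sex-matched pairs, although the labels do not state that the number marks the litter. Deviations from the group means correlated at 0.145 to 0.631 in 15 of 16 pairs and at 0.0662 in the M1 pair at E12.5.

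The 10 members and the 16 other gene lists were chosen with earlier results of these data known. All members are named. Of each list up to 3 called genes with the largest change are named, or, where none was called, up to 2 with the highest level. Further listed genes are named beside the counts, sums and folds they belong to. Genes like the members were ranked as stated beside them. The 3-UMI limit is given where a count is 0.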

Additional observations from a re-analysis of the deposited data

Results flagged for a closer look

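A library was singled out where its gap to the nearest of the other 3 was a larger part of the group's range than Dixon's critical value for 4 libraries. Chance alone singles out about 1 in 20 groups, and 12 of 86 groups of these genes and shares were. At E12.5 WT F2 was so for Rspo1 (24 CPM against 2.55 to 4.04 in the other WT libraries), Rspo2 (5.80 against 0.130 to 0.986), Wls (33.4 against 18.6 to 20.8) and Wnt8b (46.4 against 13.0 to 17.4). The thinned share of Sox2-detected cells with 2 or more of the 10 genes was 4.50% in that library against 0.95 to 1.51%. These 5 values come from 1 library and are not independent.

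At E14.5 WT M2 was highest for Rspo1 (1.26 CPM, 40 UMIs), Rspo2 (0.537 CPM, 17 UMIs) and Wnt8b (0.726 CPM, 23 UMIs), again 1 library for 3 genes. The remaining cases were Wnt5a in WT M1 at E16.0 (3.58 CPM against 1.75 to 1.84), Rspo2 in het M1 at E16.0 (0.597 CPM, 15 UMIs), Bmp7 in het M1 at E16.0 (3.98 CPM against 2.19 to 2.48) and Lmx1a in het F2 at E14.5 (0.155 CPM, 5 UMIs). Bmp7 went in opposite directions at neighbouring stages, with a het to WT ratio of 0.587 and lower levels in all 4 pairs at E12.5 but a ratio of 1.32 and higher levels in all 4 pairs at E14.5; the difference between the stages was not tested.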

How the results depend on the processing

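The count of genes called between genotypes depended strongly on the method at E12.5 in all cells: 52 in the edgeR fit, 690 with DESeq2, 11 with no filter on low counts, 2212 with the pair as a replicate block and 1 to 1486 with 1 library left out. In Sox2-detected cells 147 became 964, 34, 2124 and 6 to 1882. At the later stages the all-cell counts with DESeq2, with the block and with 1 library left out were 1, 1 and 0 to 1 at E14.5, 9, 25 and 0 to 1 at E16.0 (0 with doublets kept) and 1, 2 and 0 to 2 at E17.5. In Sox2-detected cells DESeq2 called 1 at E14.5 and 1 at E17.5, the block 1, 5 and 2 in stage order, at least 2 Sox2 UMIs 1 at E17.5, and leaving out 1 library gave 0 to 1, 0 to 2 and 0 to 4. The WT step from E14.5 to E16.0 gave 1348 genes with no filter on low counts and 935 to 3358 with 1 library left out, and 733 to 1816 in Sox2-detected cells.

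The log2 fold change of a member between WT stages kept its direction and its side of the threshold in 569 alternative fits, lost the call in 20, gained one in 13 and changed sign in 13, the last all for genes not called in the step. This tally includes the step from E12.5 and the genes Wnt8b, Msx1, Rspo1 and Lmx1a, which are given without a test. No stability of calls is therefore read from it. With doublets kept Msx1 from E16.0 to E17.5 became 0.027, and with at least 2 Sox2 UMIs Rspo1 in the same step became -0.23. With 1 library left out, in all cells, Dkk3 from E12.5 to E14.5 ran from -0.41 to 0.15, and from E16.0 to E17.5 Wls ran from -0.039 to 0.17, Msx1 from -0.50 to 0.58 and Rspo3 from -0.35 to 0.020. In Sox2-detected cells Wnt5a from E12.5 to E14.5 ran from -0.99 to 0.045, Wnt8b from E14.5 to E16.0 from -5.73 to 1.88, and from E16.0 to E17.5 Rspo1 from -0.29 to 1.26 and Wnt8b from -1.90 to 2.80. The cause of these changes was not tested; Wnt8b had 1 to 21 UMIs per stage in these cells after E12.5.

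The difference in the share of Sox2-detected cells with 2 or more members (het minus WT, -8.03 points at E12.5) kept its sign but was -1.25 points when thinned to 3000 UMIs and -0.906 when thinned to 2000. It was -3.79 with 3 or more members and -0.416 for those thinned, -1.02 thinned without Dkk3, Wnt5a and Bmp7, -1.24 thinned without cells with meningeal markers, and -0.449 thinned without WT F2. At E14.5 it was -0.680 points, -0.118 thinned to 2000 UMIs, and -0.0890 thinned both with 3 or more members and without the 3 named genes. The thinned alternatives beyond the plain ones, and those without meningeal cells or without WT F2, and the ratios without WT F2 in the report, were chosen after seeing the data. Depth also limits these shares: 29.95% of the cells of het F1 at E12.5 had under 3000 UMIs.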
